A study of Homo sapiens with 12 samples.

Results

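The genes described here are 28 genes of cholesterol synthesis and sterol regulation, found by symbol among the 58735 genes of the deposited tables. They comprise 8 enzymes from acetyl-CoA to the farnesyl and geranylgeranyl diphosphates (ACAT2, HMGCS1, MVK, PMVK, MVD, IDI1, FDPS, GGPS1), 3 enzymes from squalene synthesis to lanosterol (FDFT1, SQLE, LSS), 8 enzymes from lanosterol to cholesterol (CYP51A1, TM7SF2, MSMO1, NSDHL, HSD17B7, EBP, SC5D, DHCR7), 5 sterol regulators (INSIG1, INSIG2, SREBF1, SREBF2, SCAP) and 4 genes of sterol transport and export (STARD4, NPC1, NPC2, ABCA1). All 28 passed the filter on low counts in every comparison. The members and the further lists below were chosen with earlier results of these data known. Their counts beside the share of all genes are therefore descriptions only.

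Cells make cholesterol from acetyl-CoA through mevalonate, squalene and lanosterol, on enzymes that sit mostly in the membrane of the endoplasmic reticulum. When sterols in that membrane are scarce, SCAP carries the SREBP precursors, encoded by SREBF1 and SREBF2, to the Golgi for cleavage, and the released factors switch on most genes of the pathway. INSIG1 and INSIG2 hold SCAP back when sterols are plentiful, and UFM1 is a ubiquitin-like protein that UFL1, its ligase, attaches to ribosomal and other proteins at the same membrane.

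RNA was measured by sequencing in MDA-MB-231, a human cell line from a basal-like, mesenchymal breast cancer. The series' text describes the cells as knockouts of UFL1 or UFM1. There were 4 groups of 3 libraries, named by their guide RNA: sgUFM1, sgUFL1, the controls (sgCtrl) for sgUFM1 and the controls for sgUFL1. Whether a group was 1 clone or a pool of cells, and whether its 3 libraries came from separate cultures, was not stated, so any p-value here covers the spread among these libraries only, which could be technical. The 2 deposited tables, of counts and of FPKM, disagree on which libraries are sgUFL1 and which are the controls for sgUFM1: columns holding the same library carried exchanged names for 6 of the 12 libraries. These libraries are called by table here. Set 1 is named sgUFL1 in the count table and controls for sgUFM1 in the FPKM table, and set 2 is named controls for sgUFM1 in the count table and sgUFL1 in the FPKM table. The libraries of sgUFM1 and of the controls for sgUFL1 had the same names in both tables, but those controls belong to the other guide.

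Library totals ran between 15342793 and 18033331 counts, which bounds the precision of the low genes. UFM1 RNA was at 37.2 to 39.7 CPM (read counts scaled to library size) in sgUFM1, below the 49.5 to 71.3 CPM of the 9 other libraries. UFL1 RNA was at 16.7 to 19.3 CPM in set 1, at 11.5 to 13.2 CPM in set 2, and at 19.8 to 30.3 CPM in the other 6 libraries, so it was lowest in the set that only the FPKM table names sgUFL1. All 8 markers of a basal-like, mesenchymal line, VIM and CD44 among them, were at 1 CPM or more in every group, and the 5 leukocyte markers summed to at most 0.485 CPM per library. By group means, 7 of 9 luminal or epithelial markers also reached 1 CPM in sgUFM1 and set 2, and 6 in the other groups. Of 6 endothelial or fibroblast markers, 2 did in sgUFM1 and set 1 and 3 in the other groups, at sums of 10.8 to 23.7 CPM. Of 4 steroidogenic markers 1 did in every group, and of 3 hepatocyte markers none did. The 9 luminal or epithelial markers summed to 749 to 768 CPM in sgUFM1, to 839 to 998 CPM in set 1 and to 961 to 1150 CPM in set 2, against 659 to 897 CPM in the controls for sgUFL1. Of the 7 luminal or epithelial markers tested, 3 were lower in sgUFM1 than in set 2, where 18.5% of all genes were lower. Against set 1 they were 2 lower, where 5.15% of all genes were (the keratins KRT8 and KRT18 in both, KRT19 in set 2). None was called against the controls for sgUFL1, where their median log2 fold change was 0.24. The part of these cell features in the sterol genes was not tested. Replicate 1 of set 1 stood apart from its group, with a chi-square per gene of 20.5 and 20.1 against replicates 2 and 3, which differed from each other by 2.41. In set 2 replicate 1 differed by 9.46 and 7.46 from replicates 2 and 3, which differed from each other by 2.56. Replicates of the controls for sgUFL1 differed from each other by 16.8 to 34.9. Transcripts, weighted by their counts, had a mean GC content of 49.09 to 49.58% in sgUFM1, of 49.6 to 49.84% in set 1 and of 49.72 to 50.26% in set 2, against 47.59 to 48.66% in the controls for sgUFL1, so the groups differed in GC content as well as in guide. Each result is therefore given as tested and, where that changed a call, with offsets for GC content and length, which remove a smooth trend over these features from each library.

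The promoters of 4 members are shown, picked from the test results given below. DHCR7, LSS and SC5D are among the enzymes called lower in sgUFM1, without the offsets, in some but not all of its comparisons. MVD had the smallest p of the members in the difference between the guide effects. RefSeq (GRCh38.p14) gave the window from 250 bases before to 50 bases after the annotated start for 25 of the 28 members, as 34 promoters. DHCR7 and SC5D have 2 windows each in that table, and the first is shown. Capitals mark the NF-Y box, CCAAT, and the core of the sterol regulatory element as CACNCCAC, each on either strand. They lie on the minus strand at chr11:71448344-71448643 (DHCR7), on the minus strand at chr21:46228725-46229024 (LSS), on the plus strand at chr11:121292521-121292820 (SC5D) and on the minus strand at chr16:88663042-88663341 (MVD), and each is written 5′ to 3′ along its gene.
DHCR7: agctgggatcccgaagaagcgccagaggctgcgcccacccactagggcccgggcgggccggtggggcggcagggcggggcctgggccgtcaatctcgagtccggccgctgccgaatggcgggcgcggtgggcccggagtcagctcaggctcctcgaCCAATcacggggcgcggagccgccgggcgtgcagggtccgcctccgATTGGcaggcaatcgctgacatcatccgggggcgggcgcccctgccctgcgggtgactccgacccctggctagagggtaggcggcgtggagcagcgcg
LSS: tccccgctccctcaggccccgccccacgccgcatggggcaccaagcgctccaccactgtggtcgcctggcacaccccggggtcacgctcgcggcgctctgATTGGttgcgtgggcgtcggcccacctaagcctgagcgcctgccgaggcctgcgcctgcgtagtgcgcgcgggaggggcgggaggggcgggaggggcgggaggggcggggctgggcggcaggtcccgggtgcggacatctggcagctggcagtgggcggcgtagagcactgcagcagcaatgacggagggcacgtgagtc
SC5D: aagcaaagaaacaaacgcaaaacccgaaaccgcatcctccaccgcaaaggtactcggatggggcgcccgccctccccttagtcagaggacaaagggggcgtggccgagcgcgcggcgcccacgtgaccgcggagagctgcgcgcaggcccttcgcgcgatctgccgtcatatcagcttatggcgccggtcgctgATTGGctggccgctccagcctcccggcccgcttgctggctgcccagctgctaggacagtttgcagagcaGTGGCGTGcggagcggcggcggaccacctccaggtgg
MVD: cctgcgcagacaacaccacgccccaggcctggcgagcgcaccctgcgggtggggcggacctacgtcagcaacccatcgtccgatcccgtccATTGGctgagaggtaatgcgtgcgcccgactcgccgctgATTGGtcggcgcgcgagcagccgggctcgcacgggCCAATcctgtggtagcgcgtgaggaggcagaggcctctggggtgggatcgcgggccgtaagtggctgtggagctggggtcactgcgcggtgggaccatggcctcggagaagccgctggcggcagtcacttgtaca
The DHCR7 window shown held 2 NF-Y boxes and its second window 0, the LSS window 1, the SC5D window shown 1 together with 1 sterol regulatory element core, and the MVD window 3. CCAAT was present in 20 of the 34 member promoters (58.8%) and in 34.6% of all 35116 promoters of the same length. CACNCCAC was present in 6 (17.6%) and in 5.87% of all promoters, the Sp1 box GGGCGG in 31 (91.2%) and in 45%, and the E-box CANNTG in 20 (58.8%) and in 68.7%. Matches of different motifs overlapped in 2 of the 34 member promoters and in none of the 4 shown. Promoters of 1 gene can overlap, and a match is a description of letters only.

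On the scale of FPKM, which corrects for gene length, the members spanned a wide range. FDPS, the synthase of farnesyl diphosphate, had a mean of 20.2 FPKM in sgUFM1, 23.1 in set 1, 21.2 in set 2 and 20.2 in the controls for sgUFL1. SCAP, NPC2, FDFT1, DHCR7, NPC1 and SREBF2 also lay above 15 FPKM in every group by their means. At the low end, the sterol exporter ABCA1 had a mean of 0.341 FPKM in sgUFM1, 0.252 in set 1, 0.357 in set 2 and 0.282 in the controls for sgUFL1. CYP51A1, the lanosterol demethylase, had 1.29 FPKM in sgUFM1, 1.67 in set 1, 1.87 in set 2 and 0.742 in the controls for sgUFL1. Summed over the 28 genes, sgUFM1 held 1330 to 1380 CPM, set 1 held 1440 to 1600 CPM, set 2 held 1370 to 1480 CPM and the controls for sgUFL1 held 1380 to 1500 CPM, so sgUFM1 lay lowest, touching set 2 and the controls for sgUFL1 at its upper end.

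**Figure D1:**
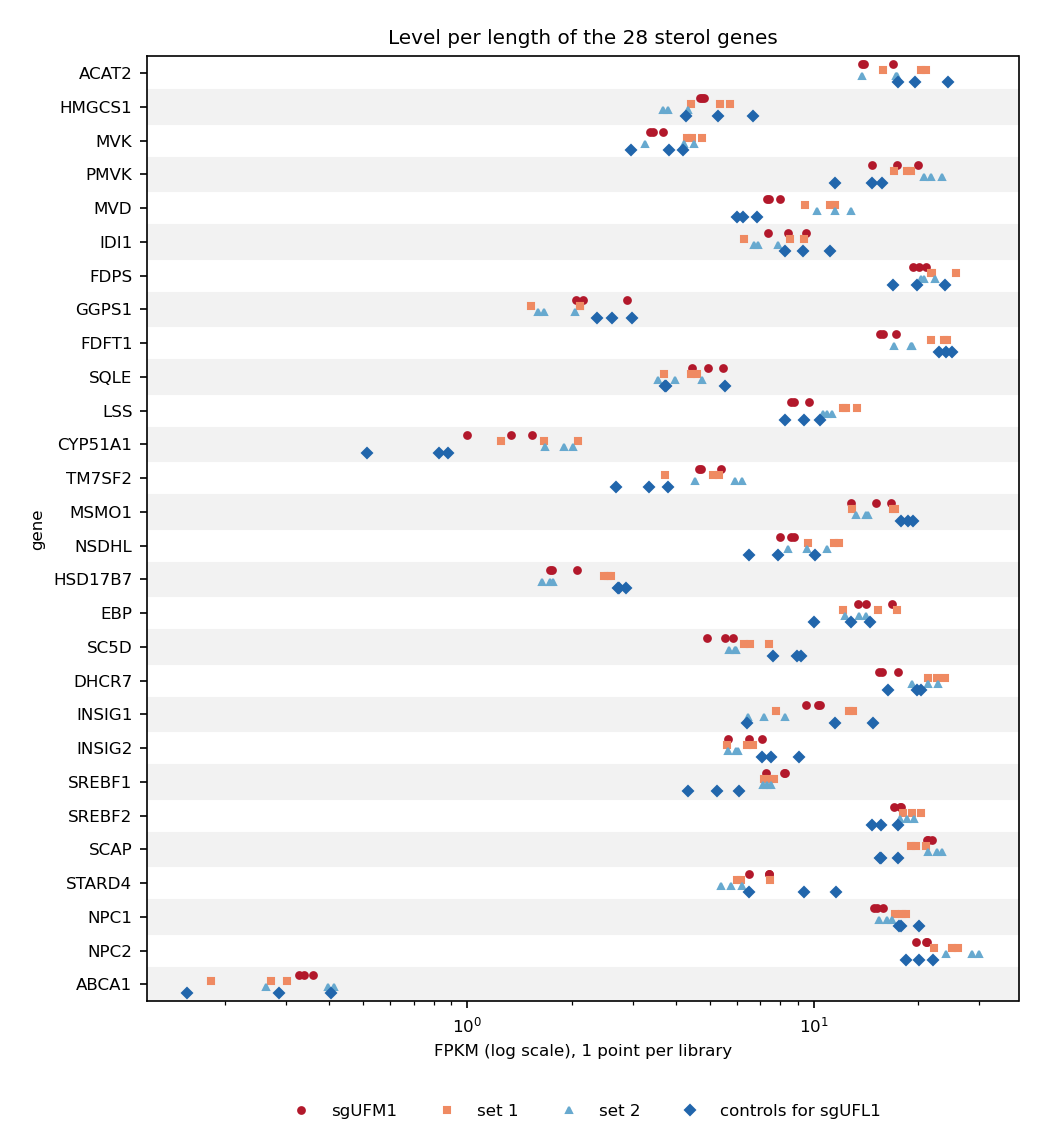
FPKM on a log axis (x) for the 28 sterol genes (y, in pathway order), 1 point per library in 4 groups of 3. The genes span from ABCA1, with group means of 0.252 to 0.357 FPKM, to genes near 20 FPKM such as FDPS, with group means of 20.2 to 23.1 FPKM.

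Setting sgUFM1 beside the controls for sgUFL1 asked how sterol genes stood under the UFM1 guide, in the only guide and control groups that both tables name alike. By edgeR's quasi-likelihood test with Benjamini-Hochberg adjustment over all genes (threshold 0.05), 3 of the 28 genes were higher in sgUFM1 (TM7SF2, SREBF1, SCAP) and 4 were lower (ACAT2, FDFT1, HSD17B7, SC5D). Of all 15035 genes tested, 5.57% were called higher and 4.43% lower. The median log2 fold change was -0.06 over the members and 0 over all genes. With the offsets the members called were 0 higher and 6 lower (ACAT2, FDFT1, LSS, SC5D, DHCR7, NPC1), against 4.33% of all genes higher and 4.03% lower. On log2 FPKM limma called 0 members higher and 2 lower (FDFT1, SC5D), and none in either direction without its filter on low values. Here and below, the share of all genes called is not given for limma or for fits with a library left out. Nor is it given where all 12 libraries were in the model of a comparison of 2 groups. Counts of members under these settings show how the calls moved, and cannot be read as a result about the members. No member was called in either direction when sgUFM1 replicate 1 was left out, and 5 higher and 5 lower were called without replicate 2 of the controls for sgUFL1. Counts of higher members were 0 without sgUFM1 replicate 2, 1 without sgUFM1 replicate 3 or control replicate 1, and 2 without control replicate 3, and counts of lower members were 2 under each of these 4. In set 2 against the same controls, without the offsets, TM7SF2 (0.74), SREBF1 (0.47) and SCAP (0.46) were also called higher. FDFT1 (-0.40), HSD17B7 (-0.71) and SC5D (-0.56) were also called lower there, and ACAT2 was not called (-0.36, edgeR adjusted p = 0.056). That comparison called 17.4% of all genes higher and 18.4% lower. Calls of these members were thus not particular to sgUFM1.

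Against set 2, which the count table names as the controls for sgUFM1, 4 members were higher in sgUFM1 (HMGCS1, GGPS1, INSIG1, STARD4) and 6 lower (PMVK, MVD, LSS, CYP51A1, DHCR7, NPC2). That comparison called 19.3% of all 15083 genes higher and 18.5% lower. The medians were -0.07 over the members and 0.01 over all genes. With the offsets 4 members were higher (EBP, INSIG1, SREBF1, SCAP) and 6 lower (MVD, FDFT1, CYP51A1, SC5D, DHCR7, NPC2), against 16.2% and 17.0% of all genes. With all 12 libraries in the model no member was higher, so INSIG1 (edgeR adjusted p = 0.18), HMGCS1 (0.22), STARD4 (0.22) and GGPS1 (0.13) lost their calls, as did PMVK (0.085) and CYP51A1 (0.13) among the lower ones. The count of lower members was 11 without set 2 replicate 1, 3 without sgUFM1 replicate 2 and 4 without sgUFM1 replicate 3 or set 2 replicate 2, and that of higher members was 1 without sgUFM1 replicate 3 and 2 without sgUFM1 replicate 2 or set 2 replicate 2.

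Against set 1, which the FPKM table names as the controls for sgUFM1, no member was higher and 5 were lower in sgUFM1 (MVK, MVD, FDFT1, LSS, DHCR7). Of all 14977 genes, 4.57% were called higher and 5.15% lower. At an unadjusted p under 0.05, 0 members were higher and 12 lower, against 12.4% and 13.6% of all genes, and DESeq2 called 0 higher and 6 lower, against 6.33% and 7.23% of the genes it gave an adjusted p. Over edgeR's log2 fold changes the medians were -0.14 over the members and -0.01 over all genes. With the offsets, 2 members were higher (SREBF1, SCAP) and 7 lower (FDFT1, LSS, HSD17B7, SC5D, DHCR7, NPC1, NPC2), against 4.16% and 3.54%. MVK was not called with all 12 libraries in the model (edgeR adjusted p = 0.13), and limma without its filter called FDFT1 alone. Leaving out set 1 replicate 1, the library that stood apart, gave 14 lower members, while 0 were lower without sgUFM1 replicate 2 and 2 without sgUFM1 replicate 3. The share of all genes called is not given for these or any other counts with a library left out. Such counts therefore show how the calls moved, and cannot be read as a result about the members. These 3 comparisons share the sgUFM1 libraries, so they are not separate lines of evidence.

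**Figure D2:**
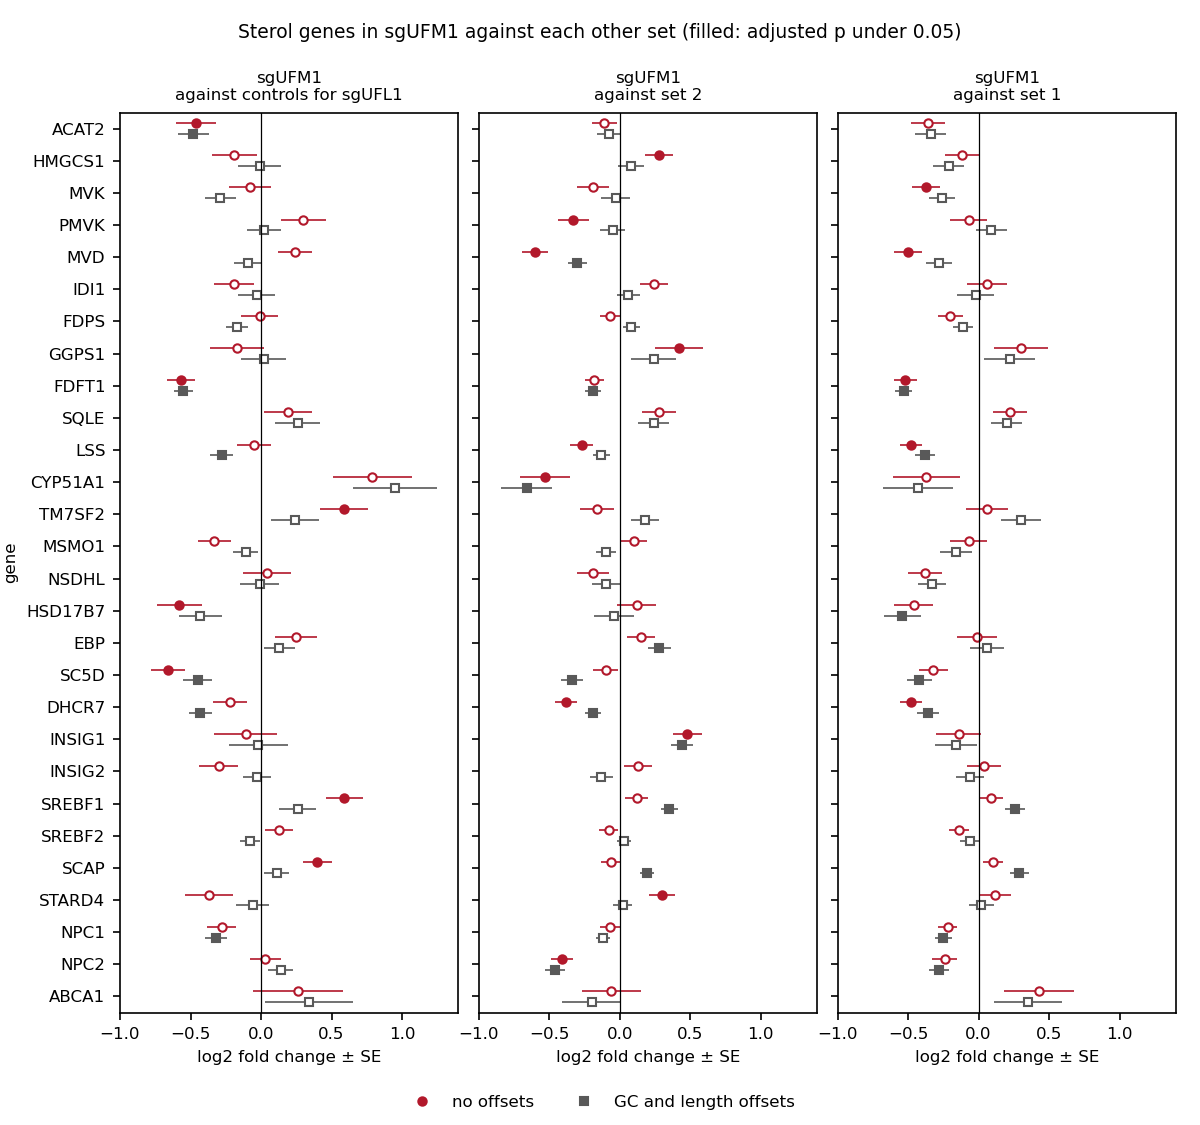
Log2 fold change with its standard error (x) of the 28 genes (y) in sgUFM1, set from left to right against the controls for sgUFL1, then set 2, then set 1, without offsets (circles) and with GC and length offsets (squares), 3 libraries per group. Filled symbols had an edgeR adjusted p under 0.05: FDFT1 was at -0.55, -0.19 and -0.53 with the offsets, filled in each panel.

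Among the early enzymes, ACAT2 was called lower in sgUFM1 than in the controls for sgUFL1, and MVD lower than in sets 1 and 2. ACAT2, the cytosolic acetoacetyl-CoA thiolase that begins the pathway, had 60.3, 59.7 and 73.3 CPM in sgUFM1, 68.4, 88.4 and 90.9 CPM in set 1, 60.1, 75.2 and 75.0 CPM in set 2, and 76.3, 105 and 84.8 CPM in the controls for sgUFL1. The sgUFM1 libraries lay below the controls for sgUFL1 without overlap, by a log2 fold change of -0.46 ± 0.14 (SE, edgeR adjusted p = 0.047), and overlapped both other sets. The ACAT2 call held with the offsets (-0.48, edgeR adjusted p = 0.027), but not on leaving out any 1 of the 6 libraries, where the edgeR adjusted p was 0.053 to 0.21. Exons of ACAT2 overlap those of SOD2 and TCP1 on the other strand, so its counts are uncertain.

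MVD, which decarboxylates mevalonate diphosphate, had 38.1, 35.3 and 34.7 CPM in sgUFM1, 44.9, 54.9 and 52.6 CPM in set 1, 48.6, 61.2 and 55.0 CPM in set 2, and 32.9, 29.7 and 28.6 CPM in the controls for sgUFL1. Its sgUFM1 libraries lay below sets 1 and 2 and above the controls for sgUFL1, with no overlap on either side. Against set 2 the log2 fold change was -0.60 ± 0.09 (edgeR adjusted p = 3e-05), a call that held with the offsets at -0.30 and on leaving out each of the 6 libraries. Against set 1 it was -0.50 ± 0.10 (edgeR adjusted p = 0.012) and lost its call with the offsets, without sgUFM1 replicate 2 (edgeR adjusted p = 0.086) and without sgUFM1 replicate 3 (0.084). Against the controls for sgUFL1 it was 0.24 ± 0.12 and not called (edgeR adjusted p = 0.2).

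PMVK, the kinase that acts just before MVD, had 25.7, 18.9 and 22.5 CPM in sgUFM1, 22.0, 23.9 and 24.7 CPM in set 1, 26.7, 30.4 and 28.2 CPM in set 2, and 19.1, 20.2 and 14.9 CPM in the controls for sgUFL1. Only set 2 lay wholly above sgUFM1, at a log2 fold change of -0.33 ± 0.11 for sgUFM1 against set 2 (edgeR adjusted p = 0.018). That call ended with the offsets, and without sgUFM1 replicate 2 (edgeR adjusted p = 0.14), sgUFM1 replicate 3 (0.056) or set 2 replicate 2 (0.077).

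GGPS1, which makes geranylgeranyl diphosphate for protein prenylation, had 8.33, 7.92 and 11 CPM in sgUFM1, 5.87, 8.11 and 8.15 CPM in set 1, 6.41, 6.18 and 7.92 CPM in set 2, and 9.15, 10.0 and 11.5 CPM in the controls for sgUFL1. The controls for sgUFL1 lay above sets 1 and 2 without overlap, and sgUFM1 lay between and overlapped or touched each. Its exons overlap those of TBCE on the same strand, so its counts are uncertain. Against set 2 GGPS1 was higher in sgUFM1 by 0.42 ± 0.17 (edgeR adjusted p = 0.049), a call that ended with the offsets, and without sgUFM1 replicate 3 (0.28), set 2 replicate 1 (0.1) or set 2 replicate 2 (0.16).

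Of the other 4 early enzymes, HMGCS1 and MVK were each called in 1 comparison of sgUFM1, and IDI1 and FDPS in none. HMGCS1, which makes HMG-CoA, ran at 22.2 to 22.8 CPM in sgUFM1, 21.0 to 27.1 in set 1 and 17.4 to 20.6 in set 2, against 20.4 to 31.5 in the controls for sgUFL1. It was higher against set 2 alone, by 0.28 ± 0.10 (edgeR adjusted p = 0.038), which ended with the offsets and on leaving out any 1 of 5 of the 6 libraries, set 2 replicate 1 being the exception (edgeR adjusted p up to 0.16). MVK, the mevalonate kinase, ran at 22.0 to 24.0 CPM in sgUFM1, 28.2 to 31.0 in set 1 and 21.4 to 29.5 in set 2, against 19.4 to 27.4 in the controls for sgUFL1. Against set 1 its libraries did not overlap, at a log2 fold change of -0.37 ± 0.10 (edgeR adjusted p = 0.038). That MVK call ended with the offsets and on leaving out any 1 of 5 of the 6 libraries, set 1 replicate 1 being the exception (edgeR adjusted p up to 0.16). IDI1, the isopentenyl diphosphate isomerase, ran at 32.3 to 41.4 CPM in sgUFM1, 27.6 to 41.0 in set 1 and 29.4 to 34.7 in set 2, against 36.5 to 48.6 in the controls for sgUFL1. FDPS ran at 72.3 to 79.1 CPM in sgUFM1, 81.5 to 96.2 in set 1 and 76.6 to 84.4 in set 2, against 63.4 to 89.1 in the controls for sgUFL1. FDPS counts are uncertain because the annotation lists 8 pseudogenes of it.

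FDFT1, the squalene synthase that commits prenyl units to sterols, was lower in sgUFM1 in a way that the offsets did not remove. It had 81.6, 83.2 and 90.3 CPM in sgUFM1, 115, 125 and 127 CPM in set 1, 89.4, 101 and 100 CPM in set 2, and 121, 126 and 131 CPM in the controls for sgUFL1. The sgUFM1 libraries lay below set 1 and the controls for sgUFL1 without overlap, and overlapped set 2 at 1 library. The log2 fold change was -0.57 ± 0.10 against the controls for sgUFL1 (edgeR adjusted p = 0.0058) and -0.55 with the offsets (edgeR adjusted p = 0.0021). Against set 1 it was -0.52 ± 0.08 (edgeR adjusted p = 0.0039) and -0.53 with the offsets (0.0022). Against set 2 it was -0.18 ± 0.07 (edgeR adjusted p = 0.064) and -0.19 with the offsets (0.016). The first call ended without sgUFM1 replicate 1 (edgeR adjusted p = 0.056) and the second without sgUFM1 replicate 2 (0.053), with log2 fold changes of -0.54 and -0.51.

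LSS, the lanosterol synthase that closes the sterol rings, had 71.0, 62.9 and 63.8 CPM in sgUFM1, 88.1, 97.2 and 90.3 CPM in set 1, 77.5, 82.9 and 80.1 CPM in set 2, and 68.8, 75.5 and 60.3 CPM in the controls for sgUFL1. The sgUFM1 libraries lay below both sets and overlapped the controls for sgUFL1. Against set 1 the log2 fold change was -0.48 ± 0.08 (edgeR adjusted p = 0.0069), and -0.38 with the offsets (0.012). Against set 2 it was -0.27 ± 0.08 (edgeR adjusted p = 0.0072), a call that ended with the offsets and without sgUFM1 replicate 2 (0.057). On leaving out sgUFM1 replicate 2 (0.067) or replicate 3 (0.059), LSS was also no longer called against set 1. Against the controls for sgUFL1 LSS was at -0.05 ± 0.12 (edgeR adjusted p = 0.8), and at -0.28 with the offsets (0.046). SQLE, the squalene epoxidase, ran at 19.4 to 23.7 CPM in sgUFM1, 16.1 to 19.9 in set 1 and 15.5 to 20.7 in set 2, against 16.1 to 23.9 in the controls for sgUFL1, and was not called in any of the comparisons.

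**Figure D3:**
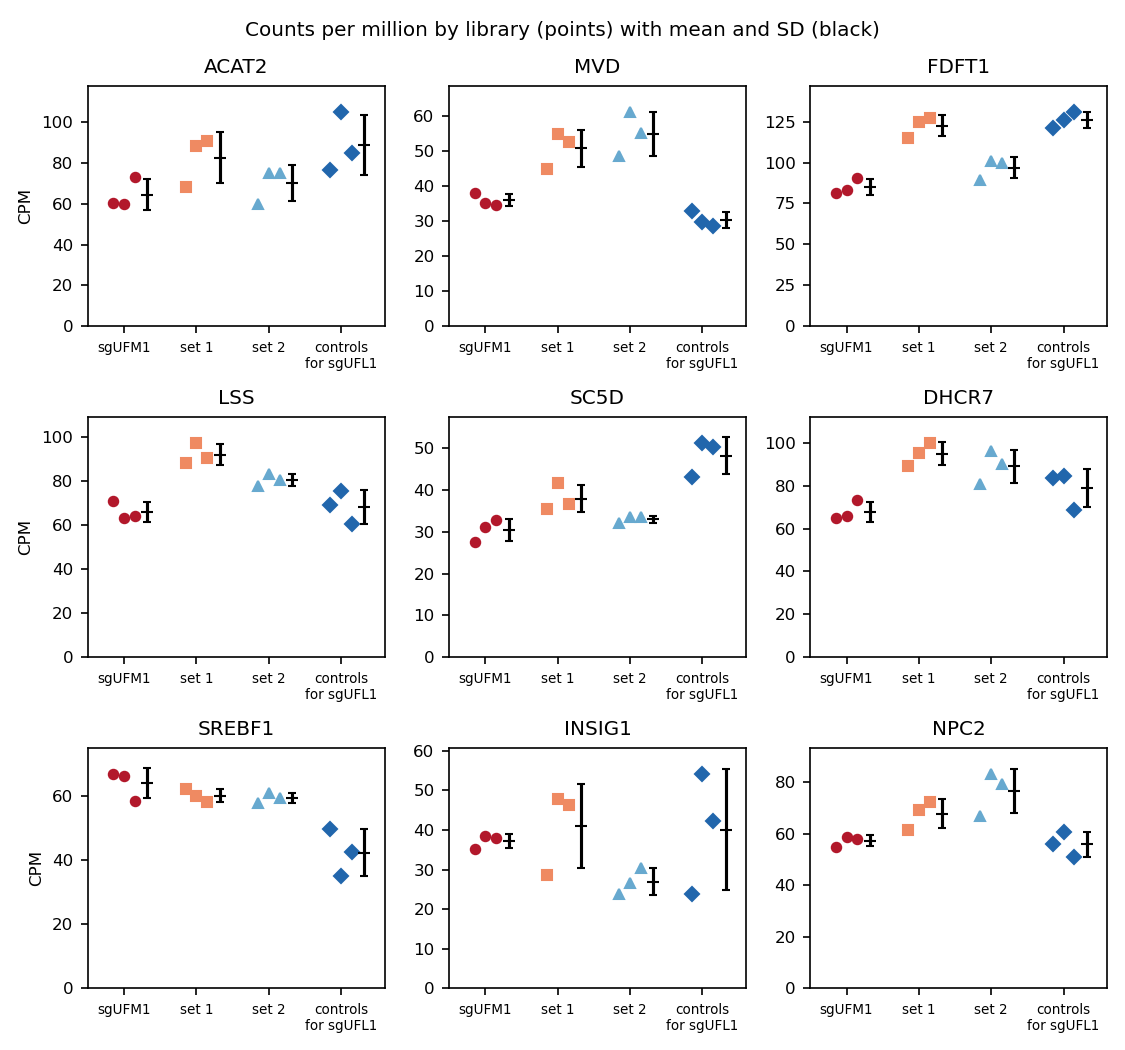
CPM (y, from 0) of 9 sterol genes in every library, by group (x), with the group mean and SD (n = 3) in black. FDFT1 sits at 81.6 to 90.3 CPM in sgUFM1, below all libraries of set 1 and of the controls for sgUFL1, while MVD in sgUFM1 sits between sets 1 and 2 above it and the controls for sgUFL1 beneath it.

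Of the enzymes after lanosterol, SC5D and HSD17B7 were lower in sgUFM1 than in the controls for sgUFL1, DHCR7 than in sets 1 and 2, and CYP51A1 than in set 2, while TM7SF2 was higher than in the controls for sgUFL1. SC5D, the lathosterol desaturase, had 27.6, 31.0 and 32.7 CPM in sgUFM1, 35.3, 41.6 and 36.7 CPM in set 1, 32, 33.4 and 33.5 CPM in set 2, and 43.0, 51.2 and 50.1 CPM in the controls for sgUFL1. The controls for sgUFL1 lay above every other library, and sgUFM1 lay below set 1 and overlapped set 2. The log2 fold change was -0.66 ± 0.12 against the controls for sgUFL1 (edgeR adjusted p = 0.0076), -0.32 ± 0.10 against set 1 (0.079) and -0.10 ± 0.09 against set 2 (0.39). With the offsets these were -0.45 (edgeR adjusted p = 0.024), -0.42 (0.024) and -0.34 (0.0015). The call against the controls for sgUFL1 ended without sgUFM1 replicate 1 (edgeR adjusted p = 0.064).

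DHCR7, which reduces 7-dehydrocholesterol to cholesterol, had 64.7, 65.8 and 73.2 CPM in sgUFM1, 89.2, 95.4 and 100 CPM in set 1, 80.7, 96.2 and 89.9 CPM in set 2, and 83.6, 84.7 and 68.5 CPM in the controls for sgUFL1. The sgUFM1 libraries lay below all of sets 1 and 2 and overlapped the controls for sgUFL1 through their replicate 3. The log2 fold change was -0.48 ± 0.08 against set 1 (edgeR adjusted p = 0.0069), -0.38 ± 0.08 against set 2 (0.00097) and -0.22 ± 0.12 against the controls for sgUFL1 (0.23). With the offsets it was -0.36 (edgeR adjusted p = 0.023), -0.19 (0.026) and -0.43 (0.013). The call against set 2 held on leaving out each of the 6 libraries, and that against set 1 ended without sgUFM1 replicate 2 (0.067).

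HSD17B7, a sterol ketone reductase, had 8.52, 9.98 and 8.31 CPM in sgUFM1, 12.3, 12 and 12.6 CPM in set 1, 7.94, 8.34 and 8.56 CPM in set 2, and 13.9, 13.0 and 13.2 CPM in the controls for sgUFL1. Its libraries fell into a low range in sgUFM1 and set 2 and a high one in set 1 and the controls for sgUFL1. It was lower in sgUFM1 than in the controls for sgUFL1, at a log2 fold change of -0.58 ± 0.16 (edgeR adjusted p = 0.037). That call ended with the offsets (-0.43, edgeR adjusted p = 0.093) and on leaving out any 1 library but control replicate 2 (0.062 to 0.18). Against set 1 HSD17B7 was at -0.46 ± 0.14 (edgeR adjusted p = 0.06) and was called with the offsets at -0.54 (0.036), and against set 2 it was at 0.12 ± 0.14 (0.55). The annotation lists 2 pseudogenes of HSD17B7, so its counts are uncertain.

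TM7SF2, a sterol C14 reductase, had 18.6, 16 and 16.2 CPM in sgUFM1, 17.6, 12.8 and 18.2 CPM in set 1, 15.6, 20.4 and 21.4 CPM in set 2, and 13.1, 9.20 and 11.5 CPM in the controls for sgUFL1. The sgUFM1 libraries lay above the controls for sgUFL1 and overlapped both sets. The log2 fold change of 0.59 ± 0.17 against the controls for sgUFL1 (edgeR adjusted p = 0.042) was 0.24 with the offsets and no longer called (0.4). It was also not called on leaving out any 1 library but control replicate 2 (0.051 to 0.2), and TM7SF2 shares exonic sequence on the same strand with VPS51.

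CYP51A1, the lanosterol demethylase, had 5.58, 4.83 and 3.62 CPM in sgUFM1, 5.99, 4.51 and 7.57 CPM in set 1, 6.90, 7.32 and 6.09 CPM in set 2, and 3.21, 2.99 and 1.86 CPM in the controls for sgUFL1. The controls for sgUFL1 were the lowest and set 2 lay above sgUFM1 without overlap. For sgUFM1 the log2 fold change was -0.53 ± 0.18 against set 2 (edgeR adjusted p = 0.03), -0.37 ± 0.24 against set 1 (0.38) and 0.79 ± 0.28 against the controls for sgUFL1 (0.091). The call against set 2 held with the offsets (-0.66, edgeR adjusted p = 0.0079), but not without sgUFM1 replicate 2 (0.063), sgUFM1 replicate 3 (0.15) or set 2 replicate 2 (0.099). The exons of CYP51A1 overlap 2 other annotated genes on its strand and an antisense gene, and the annotation lists 3 pseudogenes of it, so its level is uncertain.

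NSDHL, which removes the C4 methyl groups together with MSMO1 and HSD17B7, had 17.3, 17.6 and 16.1 CPM in sgUFM1, 19.3, 22.9 and 23.8 CPM in set 1, 17.0, 22.0 and 19.3 CPM in set 2, and 16, 20.3 and 13.1 CPM in the controls for sgUFL1. Its sgUFM1 libraries lay below set 1 without overlap, at -0.38 ± 0.12, which was not called (edgeR adjusted p = 0.065). MSMO1, a C4 methylsterol oxidase, ran at 37.6 to 48.7 CPM in sgUFM1, 37.5 to 49.9 in set 1 and 38.6 to 41.8 in set 2, against 52.2 to 56.3 in the controls for sgUFL1. Against those controls its sgUFM1 libraries did not overlap, with a log2 fold change of -0.33 ± 0.12 that was not called (edgeR adjusted p = 0.1) and was -0.11 with the offsets. EBP, the sterol isomerase, ran at 32.5 to 40.7 CPM in sgUFM1, 29.4 to 42.2 in set 1 and 30.0 to 34.4 in set 2, against 24.3 to 35.0 in the controls for sgUFL1. EBP was called only with the offsets and only against set 2, at 0.28 (edgeR adjusted p = 0.0091).

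Among the regulators, SREBF1 and SCAP were higher in sgUFM1 than in the controls for sgUFL1, and INSIG1 was higher than in set 2. SREBF1, the gene of SREBP1, had 67.1, 66.5 and 58.7 CPM in sgUFM1, 62.3, 60.0 and 58.2 CPM in set 1, 57.8, 61.2 and 59.5 CPM in set 2, and 49.7, 35.0 and 42.7 CPM in the controls for sgUFL1. The controls for sgUFL1 lay below the other 9 libraries, which overlapped each other. The log2 fold change was 0.59 ± 0.13 against the controls for sgUFL1 (edgeR adjusted p = 0.019), 0.12 ± 0.08 against set 2 (0.26) and 0.09 ± 0.08 against set 1 (0.54). With the offsets these were 0.26 (edgeR adjusted p = 0.22), 0.35 (8.2e-05) and 0.26 (0.042), so the call passed from one comparison to the others. Without sgUFM1 replicate 1 or 2 the first edgeR adjusted p was 0.098 and 0.089.

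SCAP, the escort of the SREBP precursors, had 139, 138 and 142 CPM in sgUFM1, 124, 128 and 137 CPM in set 1, 139, 152 and 148 CPM in set 2, and 101, 113 and 101 CPM in the controls for sgUFL1. Its sgUFM1 libraries lay above set 1 and the controls for sgUFL1 and overlapped set 2. The log2 fold change was 0.40 ± 0.10 against the controls for sgUFL1 (edgeR adjusted p = 0.025) and 0.11 with the offsets (0.52). With the offsets SCAP was called against set 2 at 0.19 (edgeR adjusted p = 0.0071) and against set 1 at 0.29 (0.034). The call without offsets ended on leaving out any of the 3 sgUFM1 libraries or control replicate 1, with an edgeR adjusted p of 0.07 to 0.12.

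SREBF2, the gene of SREBP2, the main driver of the cholesterol genes, had 136, 135 and 129 CPM in sgUFM1, 138, 155 and 147 CPM in set 1, 136, 148 and 142 CPM in set 2, and 120, 133 and 112 CPM in the controls for sgUFL1. Its log2 fold change in sgUFM1 was 0.13 ± 0.10 against the controls for sgUFL1, -0.08 ± 0.07 against set 2 and -0.14 ± 0.07 against set 1, none of them called with or without the offsets. INSIG2 had 22.6, 28.2 and 25.8 CPM in sgUFM1, 26.6, 22.4 and 25.5 CPM in set 1, 24.1, 22.6 and 23.8 CPM in set 2, and 30.1, 28.1 and 36.0 CPM in the controls for sgUFL1. The controls for sgUFL1 held the highest INSIG2 values and overlapped sgUFM1 at 1 library of each, and no comparison of sgUFM1 called it.

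INSIG1, itself a target of the SREBPs, ran at 35.1 to 38.5 CPM in sgUFM1, 28.7 to 47.8 in set 1 and 23.8 to 30.5 in set 2, against 23.8 to 54.2 in the controls for sgUFL1. The 3 sgUFM1 libraries lay above set 2 without overlap and inside the wide ranges of the other groups. Against set 2 the log2 fold change was 0.48 ± 0.10 (edgeR adjusted p = 0.0006) and 0.44 with the offsets (0.00025), and the call held on leaving out each of the 6 libraries but not with all 12 libraries in the model (0.47, edgeR adjusted p = 0.18). Against set 1 INSIG1 was at -0.14 ± 0.16 (edgeR adjusted p = 0.64) and against the controls for sgUFL1 at -0.11 ± 0.22 (0.78).

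The transport genes differed from each other. NPC2, the lysosomal protein that hands cholesterol to NPC1, had 54.9, 58.9 and 58.1 CPM in sgUFM1, 61.6, 69.4 and 72.4 CPM in set 1, 66.9, 83.3 and 79.4 CPM in set 2, and 56.1, 60.7 and 51.1 CPM in the controls for sgUFL1. The sgUFM1 libraries lay below both sets and overlapped the controls for sgUFL1. NPC2 was lower against set 2, at a log2 fold change of -0.41 ± 0.08 (edgeR adjusted p = 0.00074) and of -0.46 with the offsets (3.1e-05), and kept its call on leaving out each of the 6 libraries. Against set 1 it was at -0.24 ± 0.09 (edgeR adjusted p = 0.096) and -0.28 with the offsets (0.044), and against the controls for sgUFL1 at 0.03 ± 0.11 (0.87). Exons of NPC2 overlap those of MIR4709 on the same strand and of ISCA2 on the other, so its counts are uncertain.

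STARD4, a soluble sterol carrier, had 37.3, 42.6 and 42.6 CPM in sgUFM1, 43.0, 34.5 and 35.2 CPM in set 1, 35.8, 30.9 and 33.2 CPM in set 2, and 54.2, 37.2 and 66.6 CPM in the controls for sgUFL1. It was higher in sgUFM1 than in set 2, without overlap, by 0.30 ± 0.09 (edgeR adjusted p = 0.012), and was at 0.02 with the offsets. Without sgUFM1 replicate 2, sgUFM1 replicate 3 or set 2 replicate 2 the edgeR adjusted p was 0.067, 0.06 and 0.073. NPC1, the lysosomal membrane exporter, ran at 152 to 161 CPM in sgUFM1, 175 to 187 in set 1 and 158 to 172 in set 2, against 179 to 205 in the controls for sgUFL1. NPC1 was called only with the offsets, at -0.32 against the controls for sgUFL1 (edgeR adjusted p = 0.029) and -0.25 against set 1 (0.029). ABCA1 ran at 3.74 to 4.11 CPM in sgUFM1, 2.09 to 3.46 in set 1 and 3.01 to 4.75 in set 2, against 1.77 to 4.67 in the controls for sgUFL1, and no comparison called it.

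Sets 1 and 2 were also compared with the controls for sgUFL1, since each is sgUFL1 against its own controls under the names of 1 table. In set 1, 1 member was higher (MVD, 0.76 ± 0.13, edgeR adjusted p = 0.049) and none lower, against 1.08% and 0.0200% of all genes. At an unadjusted p under 0.05, 11 members were higher and 4 lower, against 16.0% and 12.1% of all genes, and DESeq2 called 3 higher and 0 lower, against 12.6% and 5.61% of the genes it gave an adjusted p. The 1 call was lost with the offsets, which left 0% of all genes called in either direction, and on leaving out any library but set 1 replicate 1 or control replicate 2, and 4 members were called higher and 1 lower without control replicate 2. In set 2, 7 members were higher (PMVK, MVD, CYP51A1, TM7SF2, SREBF1, SCAP, NPC2) and 9 lower (HMGCS1, IDI1, GGPS1, FDFT1, MSMO1, HSD17B7, SC5D, INSIG2, STARD4), against 17.4% of all genes higher and 18.4% lower. With the offsets 2 were higher (CYP51A1 at 1.62 and NPC2 at 0.60) and 1 lower (FDFT1 at -0.36), against 4.90% and 4.07%. Of the members called, SREBF1 (-0.10), SCAP (-0.10) and INSIG2 (0.10) turned direction with the offsets. The count of lower members was 2 without set 2 replicate 2, 4 without set 2 replicate 1 or 3, and 6 without control replicate 3.

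Set 1 against set 2 is the same pair of groups under both tables, with the names the other way round. No member was called, while 0.705% of all genes were called higher and 1.49% lower. At an unadjusted p under 0.05, 5 members were higher and 2 lower, against 9.71% and 10.3% of all genes. DESeq2 called 3 higher and 0 lower, against 2.02% and 3.32% of the genes it gave an adjusted p, and edgeR called 6 higher without set 1 replicate 1. With the offsets FDFT1 was the 1 member called, higher in set 1 by 0.33 (edgeR adjusted p = 0.034), against 1.04% of all genes higher and 1.77% lower.

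The difference of the guide effects, the effect of sgUFM1 against its controls minus that of sgUFL1 against its controls, is the same under the names of both tables and uses all 12 libraries. Of the 28 members, 10 had a lower effect under sgUFM1 than under sgUFL1 (PMVK, MVD, LSS, CYP51A1, TM7SF2, NSDHL, DHCR7, SREBF2, SCAP, NPC2) and 3 a higher one (GGPS1, INSIG2, STARD4), against 17.9% and 17.0% of all 15821 genes. The median was -0.13 over the members and 0.02 over all genes. MVD had a difference of -1.35 ± 0.16 on the log2 scale (edgeR adjusted p = 0.0001), CYP51A1 of -1.69 ± 0.35 (0.0022) and NPC2 of -0.69 ± 0.15 (0.0024). With the offsets these 3 were the only members called, MVD at -0.50 (edgeR adjusted p = 0.025), CYP51A1 at -2.05 (0.0041) and NPC2 at -0.88 (0.0014), against 5.44% of all genes lower and 3.96% higher. Of the members called, TM7SF2 (0.23), SREBF2 (0.06), SCAP (0.37) and INSIG2 (-0.15) turned direction with the offsets, and with the replicate block as well SCAP was called in that direction (0.36, edgeR adjusted p = 0.024). MVD, CYP51A1, NPC2, PMVK, GGPS1, LSS, DHCR7 and STARD4 kept their calls on leaving out each of the 12 libraries, without the offsets. TM7SF2 and INSIG2 kept theirs in 4 of these 12, NSDHL and SREBF2 in 3 and SCAP in 6, with an edgeR adjusted p of up to 0.12 in the rest. The count of higher members was 6 without control replicate 1, and that of lower members 6 without sgUFM1 replicate 2, set 1 replicate 3, or set 2 replicate 2 or 3.

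GC content ran with the member changes in the same direction as over all genes. Spearman's rho between GC content and log2 fold change was 0.59 over the 28 members and 0.52 over all genes in sgUFM1 against the controls for sgUFL1. The same rho was 0.72 and 0.74 in set 2 against those controls, and -0.74 and -0.68 in the difference of the guide effects. Against set 2 it was -0.50 and -0.46 for sgUFM1, and against set 1 it was -0.22 and -0.31. These are descriptions across genes, which share libraries and are not replicates. The members ran from 34.2 to 64.2% GC, with a median of 49.4% against 49.1% over protein-coding genes. The part of GC content in the calls beyond what the offsets show was not tested.

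**Figure D4:**
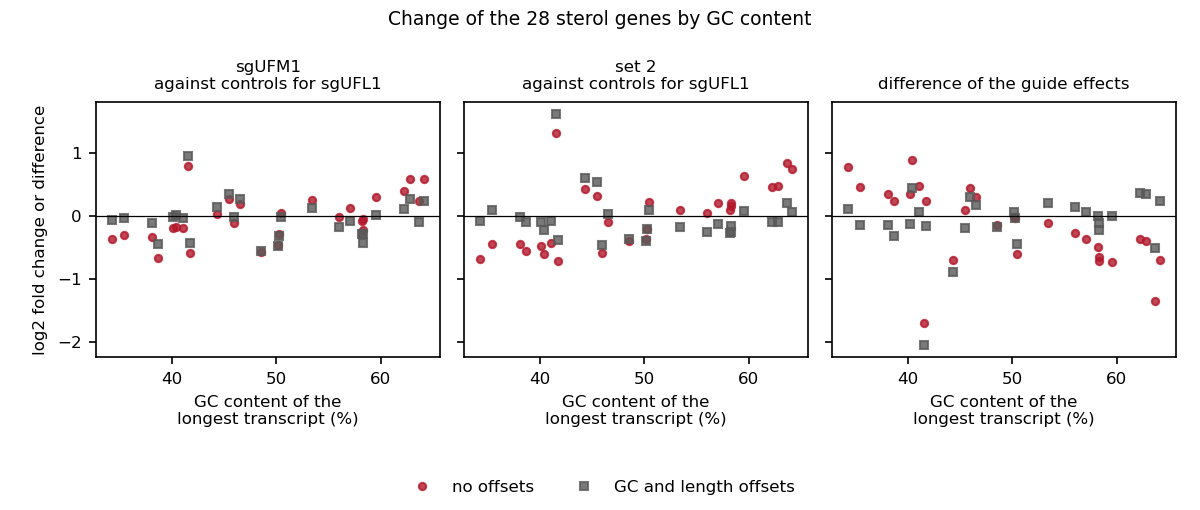
Log2 fold change, or difference for the right panel (y), of the 28 genes against the GC content of each gene's longest transcript (x), without offsets (circles) and with GC and length offsets (squares). Without offsets the points climb with GC content at left and in the middle (rho 0.59 and 0.72) and descend at right (rho -0.74).

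Other genes of sterol and lipid metabolism were described from 6 lists, first between sgUFM1 and the controls for sgUFL1, where 5.57% of all genes were called higher and 4.43% lower. ABCG1, a sterol exporter induced by the liver X receptors (LXR), stood out with 7.96 ± 0.932 CPM in sgUFM1, 2.89 ± 0.424 in set 1, 3.87 ± 0.556 in set 2 and 2.53 ± 0.723 in the controls for sgUFL1 (SD, n = 3 each). Its log2 fold change was 1.65 ± 0.25 against the controls for sgUFL1 (edgeR adjusted p = 0.0029), 1.05 ± 0.18 against set 2 (0.00012) and 1.46 ± 0.20 against set 1 (0.0032). Against the controls for sgUFL1 it was 1.53 with the offsets and kept its call there and on leaving out each library, but not in limma on FPKM without the filter (0.98 on the log2(FPKM + 0.5) scale, limma adjusted p = 0.13). ABCG1 was 1 of 3 genes higher, and none lower, among 12 tested of the list of LXR and its targets, whose median was 0.32. The others were RXRA, the partner receptor of LXR, at 0.44 ± 0.11, and NR1H2, the gene of LXR-beta, at 0.57 ± 0.17, and both lost their calls with the offsets. In set 2 against the same controls this list also had 3 higher and 0 lower of 12, with a median of 0.29. There 17.4% of all genes were higher and 18.4% lower. For sgUFM1 against set 2 the median of the list was 0.05, so its rise was not particular to sgUFM1. ABCA1, counted among the members and not in this list, was at 0.26 ± 0.32 against the controls for sgUFL1 (edgeR adjusted p = 0.62).

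In that comparison the SREBP processing list had 0 higher and 1 lower of 13, PAQR3, a Golgi anchor of SCAP, at -0.92 ± 0.18 (edgeR adjusted p = 0.0085), which was -0.64 and still called with the offsets, and 0.051 by edgeR adjusted p without sgUFM1 replicate 1. The list of fatty acid synthesis and SREBP1 targets had 0 higher and 2 lower of 19, FABP5, a fatty acid carrier, at -0.48 ± 0.14, and ELOVL6, a fatty acid elongase, at -0.39 ± 0.11. The isoprenoid list had 0 higher and 1 lower of 15, COQ2, of coenzyme Q synthesis, at -0.44 ± 0.13. The list of uptake, esterification and intracellular transport had 3 higher and 3 lower of 25. Its named genes were GRAMD1A, a sterol transporter between membranes, at 0.45 ± 0.10, SOAT1, which esterifies cholesterol, at -0.46 ± 0.11, and OSBPL6, an oxysterol-binding protein relative, at -0.73 ± 0.18. The calls of ELOVL6, GRAMD1A and SOAT1 ended with the offsets, at -0.22, 0.14 and -0.27. Leaving out any 1 of the sgUFM1 libraries ended the calls of FABP5, ELOVL6, COQ2, GRAMD1A, SOAT1, OSBPL6, RXRA and NR1H2, with edgeR adjusted p of 0.08 to 0.26. Without control replicate 1 these calls ended too, except that of SOAT1 (0.058 to 0.14), and without control replicate 3 those of FABP5, ELOVL6, COQ2, NR1H2 and OSBPL6 (0.063 to 0.097). Of the oxysterol and bile acid enzymes 0 of 5 tested were called.

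The same lists were counted against the other sets, in comparisons that share the sgUFM1 libraries. All values in this paragraph are without the offsets, and the part of GC content in them was not tested. Against set 2, where 19.3% of all genes were higher and 18.5% lower, the SREBP processing list had 5 higher and 0 lower of 13, with PAQR3 at -0.13 ± 0.09 and not called (edgeR adjusted p = 0.27). There the list of fatty acid synthesis and SREBP1 targets had 7 higher and 4 lower of 18, and that of LXR and its targets 3 higher and 1 lower of 12. Uptake and transport genes were 9 higher and 3 lower of 25, isoprenoid genes 2 higher and 2 lower of 15, and oxysterol enzymes 1 higher and 0 lower of 5. Against set 1, where 4.57% of all genes were higher and 5.15% lower, SREBP processing had 2 higher and 0 lower of 13, with PAQR3 at -0.44 ± 0.13 (edgeR adjusted p = 0.06). Fatty acid genes there were 1 higher and 2 lower of 18, LXR genes 2 higher and 0 lower of 12, transport genes 1 higher and 1 lower of 24, and the isoprenoid and oxysterol lists had no call. FABP5 was called lower in all 3 comparisons, at -0.38 ± 0.11 against set 2 (edgeR adjusted p = 0.012) and -0.51 ± 0.12 against set 1 (0.024). In the difference of the guide effects, against 17.0% of all genes higher and 17.9% lower, SREBP processing had 4 higher and 0 lower of 13, fatty acid genes 8 higher and 3 lower of 19, and LXR genes 2 higher and 1 lower of 12. Transport genes there were 9 higher and 4 lower of 25, isoprenoid genes 3 higher and 2 lower of 15, and oxysterol enzymes 0 of 5.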

How the data were processed

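Total RNA from TRIzol was sequenced, per the labels' protocols, with no word on strand. The authors deposited whole-number read counts per gene in one table and FPKM values in another, each for all 12 libraries. The submitters' processing notes name GRCh38, fastp (0.20.1), STAR (2.7.7a) and featureCounts (2.0.0), without roles or settings. Columns of the 2 tables were matched by multiplying FPKM by gene length, over 12320 genes: log2 ratios varied with an SD of at most 6.5e-10 in matched columns, while the next best column gave at least 0.193. Groups come from the titles in the labels, and no group was assigned from measured values.

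The quasi-likelihood test of edgeR (4.0.16, under R 4.3.3) was run on the counts after filterByExpr and TMM scaling, with p-values adjusted by Benjamini-Hochberg over all genes tested (threshold 0.05), on the 6 libraries of each comparison, or all 12 for the difference of the guide effects. CPM values are scaled by TMM over all 12 libraries and ± after a log2 value is its standard error. Known changes were put into simulated counts, drawn from the mean and fitted spread of each gene. For sgUFM1 against the controls for sgUFL1 (14745 genes), 35.8% of genes changed 1.5-fold, 74.6% of those changed 2-fold and 87.9% of those changed 4-fold were called. Of 142 calls there, 10 were false. The simulated libraries had no GC trend and none stood apart, so these shares need not hold for the real libraries. The GC content (longest GENCODE transcript) and length offsets are lowess fits with a span of 0.3. Alternatives were RLE size factors, no filter, DESeq2 1.42.0, limma 3.58.1 on log2(FPKM + 0.5), all 12 libraries in the model, a replicate block and leaving out each library. Exons of 15 of the 28 members overlap another gene, and without stated strand their reads cannot be assigned with certainty. These members are ACAT2, HMGCS1, MVK, IDI1, FDPS, GGPS1, FDFT1, LSS, CYP51A1, TM7SF2, SREBF1, SREBF2, STARD4, NPC1 and NPC2. Named outside the members are up to 3 called genes per list with the smallest p. Every library is given for members called in sgUFM1 against the controls for sgUFL1 or in the difference of the guide effects. The members and lists were chosen with earlier results of these data known.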

Additional observations from a re-analysis of the deposited data

Results flagged for a closer look

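The effect of sgUFM1 against its controls differed from that of sgUFL1 against its controls in 13 of the 28 genes, by an edgeR test of the difference itself over all 12 libraries. On the log2 scale the difference was -1.69 for CYP51A1, -1.35 for MVD, -0.73 for PMVK, -0.71 for LSS, -0.70 for TM7SF2, -0.69 for NPC2, -0.65 for DHCR7, -0.61 for NSDHL, -0.37 for SCAP and -0.36 for SREBF2. It was 0.88 for GGPS1, 0.78 for STARD4 and 0.46 for INSIG2. CYP51A1 was low, at 1.86 to 7.57 CPM over all libraries, and its overlaps with other genes and its pseudogenes make its counts uncertain. Background in the same test was 17.0% of all genes higher and 17.9% lower. With offsets for GC content and length, MVD (-0.50), CYP51A1 (-2.05) and NPC2 (-0.88) were the members still called. TM7SF2 (0.23), SCAP (0.37), SREBF2 (0.06) and INSIG2 (-0.15) turned direction with them, and none of these 4 was then called, though SCAP was with the replicate block as well (0.36, edgeR adjusted p = 0.024). Count-weighted GC content had a mean of 49.09 to 49.58% in sgUFM1, of 49.6 to 49.84% in set 1 and of 49.72 to 50.26% in set 2, against 47.59 to 48.66% in the controls for sgUFL1, and its part in the other 10 was not tested beyond the offsets.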

How the results depend on the processing

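Members called higher and lower are counted below for each comparison, first as reported. These are counts of members only, without the share of all genes called under the same setting, so they show how the calls moved and no more. For sgUFM1 against the controls for sgUFL1 (3 higher, 4 lower) the offsets left 0 higher, the replicate block with the offsets 1 higher, and limma on log2(FPKM + 0.5), log2(FPKM + 0.1) and log2(FPKM + 1) left 0 higher and 2 lower, or 0 and 0 at FPKM + 0.5 without the filter. Leaving out 1 library gave 0 to 5 higher and 0 to 5 lower. For sgUFM1 against set 2 (4 and 6), 2 were higher without the filter, 2 in DESeq2, 0 with all 12 libraries and 1 in limma without the filter, and leaving out 1 library gave 1 to 5 higher and 3 to 11 lower. For sgUFM1 against set 1 (0 and 5), 2 were higher with the offsets and 1 with block and offsets, 1 was lower in limma without the filter, and leaving out 1 library gave 0 higher and 0 to 14 lower. For set 1 against the controls for sgUFL1 (1 and 0), 0 were higher with RLE size factors, the replicate block, the offsets, block and offsets, and each of the 4 limma fits, 4 higher and 1 lower without the filter, 3 higher in DESeq2, and 7 higher and 2 lower with all 12 libraries. Leaving out 1 library gave 0 to 4 higher and 0 to 1 lower there. For set 2 against the controls for sgUFL1 (7 and 9), the offsets left 2 higher and 1 lower, block and offsets 2 and 2, limma without the filter 4 and 4, and leaving out 1 library 5 to 10 higher and 2 to 11 lower. For set 1 against set 2 (0 and 0), 3 were higher without the filter, 3 in DESeq2, 1 with all 12 libraries, 3 with the replicate block, 1 with the offsets and 2 with block and offsets, and leaving out 1 library gave 0 to 6 higher and 0 lower. For the difference of the guide effects (3 and 10), the offsets left 0 and 3, block and offsets 1 and 3, limma without the filter 0 higher, and leaving out 1 library gave 2 to 6 higher and 6 to 11 lower.

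Some members turned direction with the offsets. In set 2 against the controls for sgUFL1 these were INSIG2 (0.10), SREBF1 (-0.10) and SCAP (-0.10), with 0.10, -0.09 and -0.09 under block and offsets. In the difference of the guide effects these were TM7SF2 (0.23), INSIG2 (-0.15), SREBF2 (0.06) and SCAP (0.37), with 0.22, -0.15, 0.06 and 0.36 under block and offsets. The cause was not tested.

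The labels say nothing that ties same-numbered libraries, so the numbers were not taken to pair them. Same-numbered libraries correlated in their deviations from the group means by r of -0.212 to 0.378, and in no comparison did every pair exceed 0.1. In set 1 against the controls for sgUFL1 r was 0.376, 0.378 and -0.212 for same numbers, and -0.567 to 0.37 for unlike numbers. With the replicate block the counts were 3 and 4 for sgUFM1 against the controls for sgUFL1, 3 and 6 against set 2, 0 and 4 against set 1, and 3 and 10 for the difference. On simulated counts with known changes of 1.5-fold the tests called 11.9% in the difference of the guide effects, 35.8% in sgUFM1 against the controls for sgUFL1 and 74.6% in sgUFM1 against set 2. Those counts had no GC trend and no library standing apart.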
